A study of Homo sapiens with 16 samples.

Results

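The subject here is the messenger RNA of 6 genes that mark lysosomal enzymes with mannose 6-phosphate or carry them to the lysosome: GNPTAB, GNPTG, NAGPA, M6PR, IGF2R and SORT1. They are 6 of the 58735 genes in the count tables and were found by gene symbol. The cells were MDA-MB-231 and SUM159PT, both wild-type human lines established from triple-negative breast cancer. In each line, cells transfected with an siRNA against YES1 (siYES1), a tyrosine kinase of the Src family, were compared with cells given an siRNA against firefly luciferase (siNS), which served as the control. Medium was added at 6 h and changed at 24 h in all 4 groups, and RNA was taken 48 h after transfection. All 4 groups received Lipofectamine2000, so the series holds no untransfected cells, and each group had 4 libraries, which the design text calls technical. The deposited column names of that second line begin with S149 and not S159. Its titles and cell line field say SUM159PT, and it is called so here as labelled.

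Soluble lysosomal hydrolases leave the Golgi because a sorting tag is built on their sugars. GNPTAB encodes the precursor of the alpha and beta subunits of GlcNAc-1-phosphotransferase, the enzyme that puts the phosphate on mannose, and GNPTG encodes its gamma subunit. NAGPA encodes the uncovering enzyme, which removes the covering sugar and leaves mannose 6-phosphate exposed. The tag is then bound by the cation-dependent receptor M6PR and by the larger cation-independent receptor IGF2R, which also takes insulin-like growth factor 2 to lysosomes for breakdown. SORT1 encodes sortilin, a receptor that can carry some lysosomal proteins without the tag and that also binds proneurotrophins. Loss of GNPTAB causes mucolipidosis, in which lysosomal enzymes are secreted in place of being retained.

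The 6 genes were chosen from measured values, with the change from siNS to siYES1 in view. That change is therefore given as a description with no test, and it supports nothing by itself. The choice did not use the difference between the lines, which is tested with each siRNA. Both sets of libraries did enter the change from siNS to siYES1. The other genes of the pathway are tested too, but their lists were chosen with earlier results of these data known.

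Many lysosomal genes carry near their start an E-box, CACGTG, or its longer palindrome TCACGTGA, the core of the CLEAR element that the transcription factor TFEB and its relatives bind. RefSeq start windows (GRCh38.p14, 250 bases before to 50 after each transcript start) were found for all 6 genes, 8 windows in all. Both words read the same on both strands, and every palindrome holds the E-box. GNPTG, NAGPA and IGF2R held the palindrome. The second start of M6PR held the E-box alone, and the windows of GNPTAB and SORT1 held neither. The matched stretches are shown because they divide the tag genes from each other and the receptors from each other. Capitals mark the palindrome, or the E-box in M6PR, and each line reads 5′ to 3′ on the strand of its gene.
GNPTG chr16:1351915-1351944, plus strand: tggTCACGTGAccgtcactTCACGTGAccg
NAGPA chr16:5033938-5033967, minus strand: tgggacttgagTCACGTGAggcgagcccac
M6PR chr12:8949473-8949502, minus strand: agtttcccacgaCACGTGagtgtgaggggc
IGF2R chr6:159968939-159969070, plus strand: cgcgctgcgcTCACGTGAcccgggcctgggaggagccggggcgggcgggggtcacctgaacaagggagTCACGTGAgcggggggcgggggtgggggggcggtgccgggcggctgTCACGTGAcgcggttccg

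The 3 copies in IGF2R began 133, 75 and 29 bases before its start, 58 and 46 bases apart. The 2 copies in GNPTG lay on either side of its start, the first beginning 13 bases before it. The copy in NAGPA began 21 bases before the start, and the E-box of M6PR 80 bases before its second start. Of all 35116 RefSeq windows of this length, 0.98% held the palindrome and 7.26% held the E-box. Windows with 2 copies of the palindrome numbered 25, and windows with 3 copies numbered 4. A match of letters is a description of the window and not evidence of binding.

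**Figure D1:**
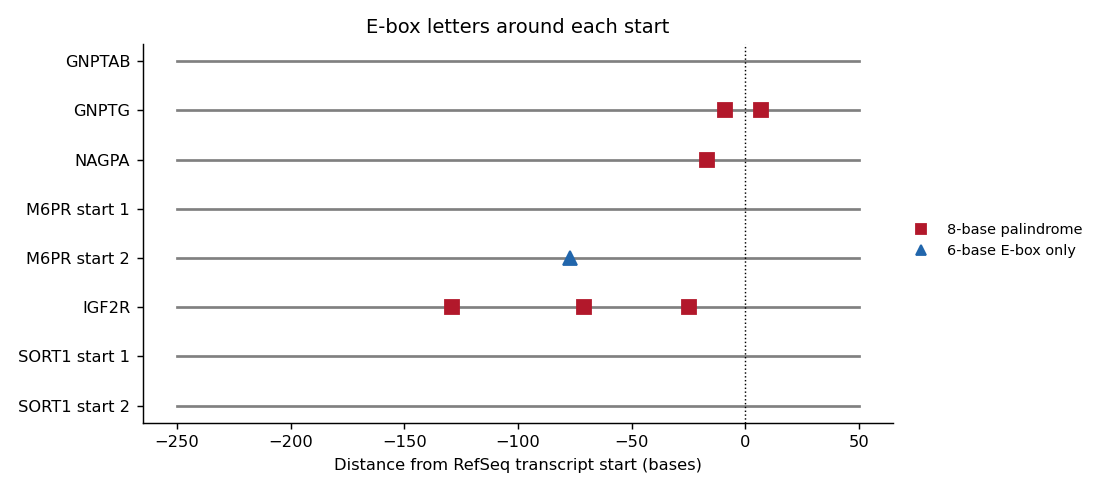
Positions of the E-box and its palindrome around the RefSeq starts of the 6 genes. The x axis is distance from the transcript start in bases, each grey line is 1 window, squares are the palindrome and triangles the E-box without it. IGF2R holds 3 squares before its start, and the windows of GNPTAB and SORT1 hold no mark.

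Library totals ran from 15680459 to 23451253 counts, and the smallest count of a member was 87, for NAGPA in SUM159PT. YES1, the targeted gene, fell to 21.0% of its siNS mean in MDA-MB-231 (log2 fold change -2.20 ± 0.09 SE, adjusted p = 5.25e-11, edgeR) and to 13.2% in SUM159PT (-2.96 ± 0.14, adjusted p = 3.88e-08, edgeR). One library stood apart, SUM159PT siNS library 1. Its median absolute log2 difference from the mean of the other libraries of its group was 0.31 across genes. In the other 15 libraries this value was 0.08 to 0.22. Of 11 markers of such tumour lines, 7 reached 1 CPM (counts scaled to library size) in each group, EGFR, VIM and CD44 among them in all 4. ERBB2, listed as a marker at low level, also reached it in all 4. EPCAM reached it only in MDA-MB-231 and KRT5 only in SUM159PT. PGR was at 0 in 3 of the 4 groups. The summed levels of leukocyte, endothelial and fibroblast markers were lower with siYES1 in both lines, though not every marker was. In SUM159PT the summed level of 6 fibroblast markers was 1795 to 2056 CPM with siNS and 687 to 800 with siYES1, and that of 5 leukocyte markers was 3.74 to 5.57 and 0.404 to 1.36. That of 4 endothelial markers was 16.6 to 25.2 and 1.86 to 2.49. In MDA-MB-231 the same sums were 68.3 to 78.4 and 29.8 to 34.4 for fibroblast markers, 8.29 to 9.74 and 2.32 to 3.68 for leukocyte markers, and 7.17 to 12.0 and 4.25 to 6.53 for endothelial markers. CD3E was at 0 in 3 of the 4 groups, and the fibroblast markers COL1A1 and PDGFRB reached 1 CPM in each. COL1A1 made up most of the fibroblast sums and CD14 most of the leukocyte sum with siNS. Against the sums, LYZ rose in MDA-MB-231 (mean 0.447 and 1.20 CPM, log2 fold change 1.45, adjusted p = 0.00353, edgeR), DCN had 0.43 in SUM159PT (adjusted p = 0.0565) and LUM 0.10 in MDA-MB-231 (adjusted p = 0.72). The part of these markers in the results below was not tested.

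GNPTAB (chr12:101745497-101830938, minus strand, GRCh38) showed the largest change of the 6 in both lines. Levels are CPM, counts divided by the TMM-scaled size of the library, set over all 16 libraries. Ratios of means and overlap of groups use these CPM. The log2 fold changes come from fits that set TMM within their own libraries, so the 2 can differ slightly. In MDA-MB-231, siNS libraries 1 to 4 held 61.7, 45.6, 44.0 and 53.0 CPM of GNPTAB, and siYES1 libraries 11.1, 9.38, 10.6 and 7.84. Every siYES1 library lay below every siNS library. The mean went from 51.1 ± 8.09 (SD, n = 4) to 9.72 ± 1.45, which is 19.0% of the siNS mean and a log2 fold change of -2.34 ± 0.12 (SE). In SUM159PT the siNS libraries held 72.3, 62.8, 72.0 and 64.4 CPM and the siYES1 libraries 20.1, 16.02, 20.01 and 18.7. Here too the groups lay well apart. The means were 67.9 ± 4.99 and 18.7 ± 1.91, so that 27.6% remained and the log2 fold change was -1.90 ± 0.11. In MDA-MB-231 78 of 14319 tested genes had a lower log2 fold change than GNPTAB, and in SUM159PT 421 of 14469. In these cell populations, fewer cells expressing a gene and less of its RNA per cell cannot be told apart.

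GNPTG (chr16:1351923-1364113, plus strand), whose product partners that of GNPTAB in the same enzyme, moved far less. Its MDA-MB-231 siNS libraries held 50.5, 60.1, 51.1 and 54.5 CPM and the siYES1 libraries 40.4, 45.3, 43.2 and 42.8. The siYES1 values lay below the siNS values without overlap, with means of 54.1 ± 4.40 and 42.9 ± 2.04 (log2 fold change -0.28 ± 0.08). In SUM159PT the values were 22.0, 25.6, 26.3 and 30.5 with siNS and 28.0, 27.7, 25.6 and 26.5 with siYES1, which overlapped. The fitted log2 fold change there was 0.00 ± 0.12, and it was -0.16 with total counts as the scaling.

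NAGPA (chr16:5024844-5034141, minus strand), the uncovering enzyme, overlapped between the siRNAs in both lines. In MDA-MB-231 its libraries held 22.8, 27.8, 22.7 and 23.5 CPM with siNS and 18.9, 22.9, 20.9 and 20.5 with siYES1 (log2 fold change -0.17 ± 0.10). In SUM159PT they held 10.3, 5.42, 8.54 and 6.77 with siNS and 8.53, 8.72, 8.39 and 8.52 with siYES1 (0.09 ± 0.20, or -0.08 with total counts as the scaling). The siNS libraries of SUM159PT spread over the whole range of NAGPA in that line, while the siYES1 libraries were almost level.

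The RNAs of the 2 phosphotransferase genes changed unequally. Per kilobase of exon, the ratio of GNPTAB to GNPTG was 0.401 ± 0.0835 (SD, n = 4) with siNS and 0.0957 ± 0.0170 with siYES1 in MDA-MB-231. The corresponding ratios in SUM159PT were 1.11 ± 0.208 and 0.293 ± 0.0357. The ranges of the siNS and siYES1 ratios did not overlap in either line. The size of each ratio rests on exon lengths joined over all annotated transcripts of a gene.

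M6PR (chr12:8940363-8949955, minus strand), the cation-dependent receptor, was higher with siYES1 in both lines. MDA-MB-231 libraries held 44.8, 36.4, 47.2 and 44.0 CPM with siNS and 75.5, 78.0, 72.8 and 73.3 with siYES1. All 4 siYES1 libraries were above all 4 siNS libraries, the means being 43.1 ± 4.67 and 74.9 ± 2.38 (1.74-fold, log2 fold change 0.85 ± 0.08). SUM159PT libraries held 66.3, 53.5, 48.1 and 54.6 with siNS and 89.9, 91.7, 81.7 and 86.4 with siYES1. These groups were separate as well, with means of 55.6 ± 7.65 and 87.4 ± 4.40 (1.57-fold, 0.61 ± 0.10).

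IGF2R (chr6:159969099-160113507, plus strand), the cation-independent receptor, was also higher with siYES1, by nearly the same factor in the lines. Its MDA-MB-231 libraries held 297, 240.3, 333 and 298 CPM with siNS and 454, 473, 388 and 342 with siYES1. The siYES1 libraries were widely spread but did not reach down to the siNS libraries, and the means were 292 ± 38.2 and 414 ± 60.2 (1.42-fold, log2 fold change 0.56 ± 0.11). In SUM159PT the values were 219, 166, 209.7 and 205 with siNS and 293, 289, 283 and 333 with siYES1. The means were 199.9 ± 23.5 and 299.7 ± 22.6 (1.499-fold, 0.54 ± 0.09), again without overlap.

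SORT1 (chr1:109309568-109397951, minus strand), the receptor that does not need the tag, was lower with siYES1 in both lines, and by very different amounts. In MDA-MB-231 it held 256, 225, 233 and 248 CPM with siNS and 194, 201, 196 and 187 with siYES1. The groups did not overlap, and the means were 241 ± 14.4 and 195 ± 5.49, or 80.8% remaining (log2 fold change -0.25 ± 0.07). In SUM159PT it held 511, 608, 633 and 636 with siNS and 227, 251, 243 and 249 with siYES1. The lowest siNS library, number 1, was the library that stood apart, and it still lay far above the siYES1 libraries. The means were 597 ± 58.4 and 243 ± 10.8, or 40.7% remaining (-1.34 ± 0.08). Without library 1 the log2 fold change was -1.42.

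**Figure D2:**
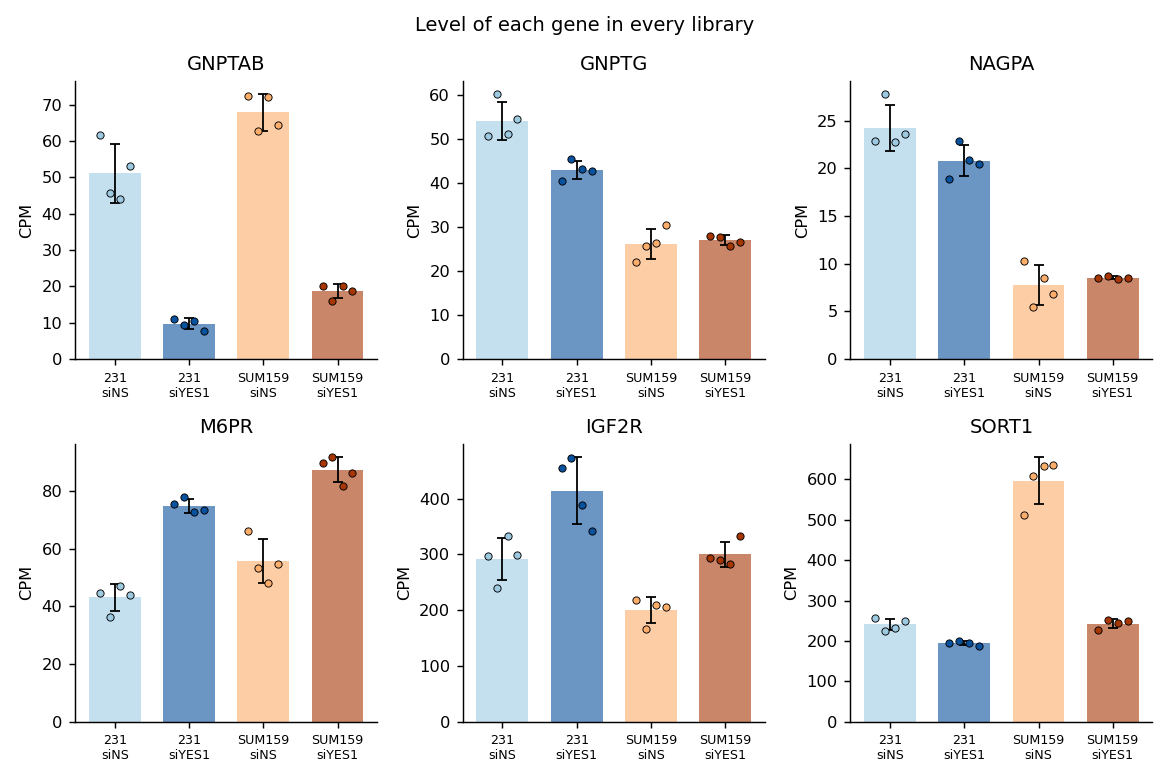
Level of each of the 6 genes in every library, in CPM on a linear axis from 0. Points are libraries, bars are group means and error bars 1 SD over 4 libraries. GNPTAB falls to 9.72 and 18.7 with siYES1, M6PR and IGF2R rise in both lines, and SORT1 in SUM159PT goes from 597 to 243.

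Counting members, 2 of 6 (M6PR and IGF2R) lay above siNS without overlap in MDA-MB-231 and 3 of 6 (GNPTAB, GNPTG and SORT1) below it. Of all tested genes, 19% lay above and 28% below in that way. In SUM159PT 2 of 6 lay above (the same receptors) and 2 of 6 below (GNPTAB and SORT1), where 20.5% of all tested genes lay above and 16.9% below. The members were chosen on this contrast, so nothing is read from these shares.

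**Figure D3:**
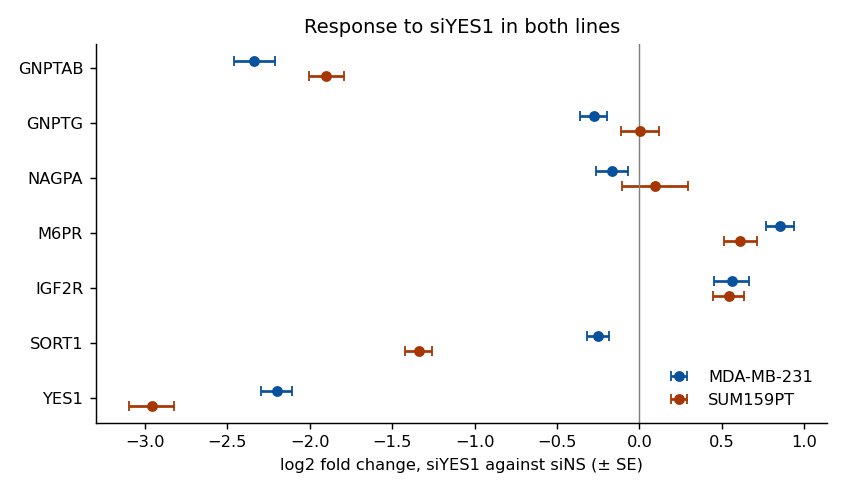
log2 fold change of the 6 genes and of YES1 with siYES1 against siNS, from edgeR, with bars of 1 SE. Both lines place GNPTAB far to the left (-2.34 and -1.90) and M6PR and IGF2R to the right of 0. SORT1 is the member whose points lie farthest apart, at -0.25 and -1.34.

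The lines differed in how much of each gene they held. The choice of members did not use that difference, but the siNS libraries entered the change on which it was made. The tests with siNS are therefore not independent of the choice. With siNS, SUM159PT held more SORT1, GNPTAB and M6PR and less NAGPA, GNPTG and IGF2R than MDA-MB-231. SORT1 was 597 CPM against 241 (log2 difference 1.32 ± 0.10 SE, adjusted p = 1.69e-08, edgeR), and NAGPA was 7.76 against 24.2 (-1.63 ± 0.19, adjusted p = 1.89e-06). GNPTG was lower by 1.04 ± 0.13 (log2 difference -1.04, adjusted p = 3.54e-06, edgeR) and IGF2R differed by -0.53 ± 0.12 (adjusted p = 0.00093). GNPTAB was 67.9 against 51.1 (log2 difference 0.42 ± 0.12, adjusted p = 0.00663, edgeR). M6PR, 55.6 against 43.1, passed with 0.38 ± 0.13 (adjusted p = 0.0148, edgeR), but not with total counts as the scaling (0.30, adjusted p = 0.0628) nor without MDA-MB-231 siNS library 2 (0.30, adjusted p = 0.0595). All 6 members passed, where 36.3% of all 15411 tested genes were higher in SUM159PT and 37.6% lower.

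The siYES1 libraries, which that comparison does not use, gave the same direction for each member. They also entered the change on which the members were chosen, so this is no independent check. GNPTAB differed by 0.91 ± 0.13 on the log2 scale (adjusted p = 1.7e-06, edgeR), GNPTG by -0.71 ± 0.07 (adjusted p = 2.43e-08) and NAGPA by -1.32 ± 0.11 (adjusted p = 7.73e-10). IGF2R differed by -0.50 ± 0.08 (adjusted p = 7.99e-06, edgeR). For SORT1 the difference was 0.28 ± 0.05 (adjusted p = 1.36e-05, edgeR), and it was 0.03 with total counts as the scaling (adjusted p = 0.542). For M6PR it was 0.19 ± 0.05 (adjusted p = 0.00364, edgeR), and with total counts as the scaling it turned to -0.07 (adjusted p = 0.237). Of all 14903 genes tested with siYES1, 41% were higher in SUM159PT and 43.9% lower. Cell line and table cannot be told apart here, since each line has its own table. The p-values measure only the spread between these libraries, which may be technical.

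Levels of different genes can be set side by side only per length, as RPKM, CPM divided by the kilobases of exon. With siNS, SORT1 led in both lines, at 26.3 ± 1.57 RPKM (SD, n = 4) in MDA-MB-231 and 65.2 ± 6.37 in SUM159PT. In MDA-MB-231 IGF2R (16.4), GNPTG (13.2) and M6PR (11.4) followed, neighbours in that order overlapping, and then GNPTAB (5.24) and NAGPA (4.42), which overlapped each other. In SUM159PT the order after SORT1 was M6PR (14.7), IGF2R (11.2), GNPTAB (6.96), GNPTG (6.36) and NAGPA (1.41), and only GNPTAB and GNPTG overlapped among neighbours.

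With siYES1 the lead of SORT1 shrank. In MDA-MB-231 IGF2R (23.2 RPKM), SORT1 (21.2) and M6PR (19.8) overlapped as neighbours, and GNPTG (10.5), NAGPA (3.79) and GNPTAB (0.997) followed without overlap. GNPTAB thus became the lowest of the 6 in that line. In SUM159PT all neighbours were separate, in the order SORT1 (26.5), M6PR (23.1), IGF2R (16.8), GNPTG (6.57), GNPTAB (1.92) and NAGPA (1.56). The ratio of SORT1 to IGF2R per kilobase went from 1.62 ± 0.193 to 0.928 ± 0.118 in MDA-MB-231 and from 5.90 ± 1.06 to 1.58 ± 0.117 in SUM159PT. The ratio of M6PR to IGF2R was 0.699 ± 0.0206 and 0.866 ± 0.109 in MDA-MB-231, and 1.32 ± 0.195 and 1.38 ± 0.120 in SUM159PT. In both lines the siNS and siYES1 ranges of the ratio of SORT1 to IGF2R did not overlap, while those of M6PR to IGF2R in SUM159PT did.

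**Figure D4:**
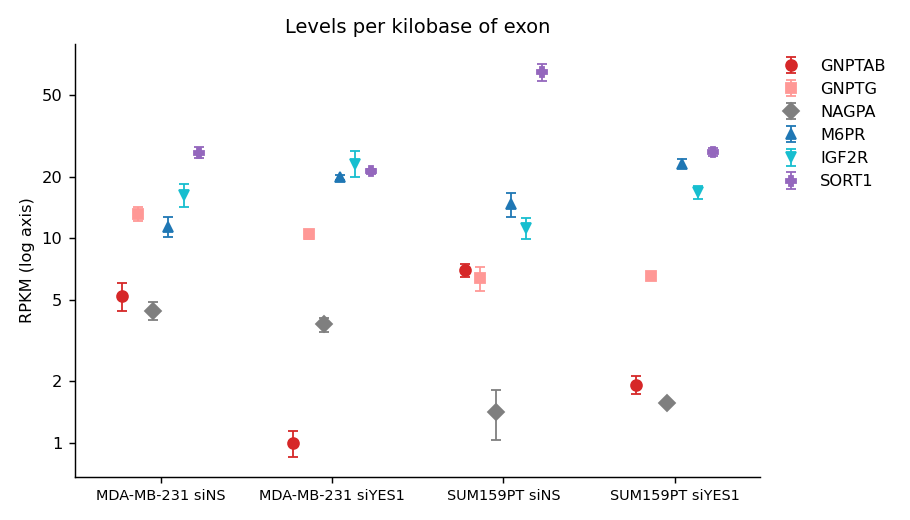
Mean RPKM of each gene in the 4 groups on a log axis, with bars of 1 SD over 4 libraries and points moved sideways for legibility. SORT1 leads at 65.2 RPKM in SUM159PT siNS, and with siYES1 the 3 receptors lie between 16.8 and 26.5 in both lines while GNPTAB drops to 0.997 and 1.92.

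Exons of 3 members overlap genes on the opposite strand, and the strand setting of the counting is not given, so their reads may be mixed. M6PR shares 1105 bases (29.3% of its exon length) with PHC1, a Polycomb gene, which fell with siYES1 in MDA-MB-231 (log2 fold change -0.88 ± 0.15, adjusted p = 0.000159, edgeR) and SUM159PT (-0.34 ± 0.11, adjusted p = 0.027). With siYES1 PHC1 thus moved opposite to M6PR, but between the lines with siNS it differed in the same direction, at 35.5 CPM in SUM159PT and 5.94 in MDA-MB-231 (log2 difference 2.59 ± 0.15, adjusted p = 1.06e-09, edgeR). GNPTG shares 909 bases (22.2%) with UNKL, which fell in SUM159PT (-0.62 ± 0.12, adjusted p = 0.00124, edgeR) and not in MDA-MB-231 (0.15 ± 0.10, adjusted p = 0.209). UNKL was higher in SUM159PT with siNS (0.85 ± 0.15, adjusted p = 8.62e-05, edgeR), opposite to GNPTG. NAGPA shares 80 bases (1.46%) with ALG1, which was lower in SUM159PT with siNS as NAGPA was (-1.52 ± 0.17, adjusted p = 1.52e-06, edgeR). The part of these shared bases in the line differences was not tested. GNPTAB, IGF2R and SORT1 shared no exon bases with a gene counted above 0.

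Genes whose level followed that of a member most closely were ranked by Pearson r of log2 levels over the 16 libraries, each line centred on its own mean, among 9405 coding genes. These r are descriptions that share the siRNA contrast and the libraries. GNPTAB was most like CCND1, which encodes cyclin D1 (r = 0.990), and PRKACB, a catalytic subunit of protein kinase A (0.989). M6PR was most like GTSE1 (0.981) and the mitotic activator CDC20 (0.974). IGF2R was most like the receptor NOTCH2 (0.973) and UHRF1BP1 (0.966), and SORT1 was most like the integrin subunits ITGB4 (0.989) and ITGA10 (0.985). The closest genes were less close for GNPTG (DAGLB, 0.912, and HMG20B, 0.899) and NAGPA (CKAP4, 0.892, and MFSD1, 0.858).

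The rest of the pathway was counted in lists of genes by role. A gene passed at an adjusted p under 0.05 over all tested genes in edgeR. With siYES1, 24.9% of all tested genes were higher and 27.5% lower in MDA-MB-231, and 17.7% were higher and 19% lower in SUM159PT. The median log2 fold change over all genes was 0.00 and -0.03. With total counts as the scaling it moved by -0.17 in SUM159PT, and the share of calls that were higher there went from 48.2% to 25.1%. The corresponding moves were -0.25 (48.3% to 40.1%) for the lines with siYES1 and -0.22 (63.5% to 33.1%, and 55.1% with RLE scaling) for the interaction of line and siRNA. List counts and medians for SUM159PT are therefore also given with total counts where they moved. Under that scaling 1397 of all 14469 genes tested in SUM159PT were higher with siYES1 and 4163 lower, against 2566 and 2755 with TMM. List counts with total counts are to be read beside the former.

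Of 4 genes listed as tag helpers (MBTPS1, TMEM251, SUMF1 and SUMF2), 1 rose and 1 fell in MDA-MB-231. None passed in SUM159PT with edgeR, DESeq2 or an unadjusted p under 0.05. SUMF1 and SUMF2 belong to the sulfatase-modifying family and do not build the tag themselves. MBTPS1, the site-1 protease that cleaves the GNPTAB product into active subunits, fell from 165 ± 7.95 to 126 ± 3.69 CPM in MDA-MB-231 (log2 fold change -0.34, adjusted p = 0.000476, edgeR). In SUM159PT it was 137 ± 8.09 and 152 ± 13.6 (0.11, adjusted p = 0.314, edgeR). TMEM251, also called LYSET, which keeps the phosphotransferase in the Golgi, rose by 0.37 in MDA-MB-231 (adjusted p = 0.047, edgeR), a call that ended with total counts as the scaling (adjusted p = 0.0785) and with any of 6 of the 8 libraries left out.

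The proteins that carry the tag were counted as its cargo. In MDA-MB-231, of 54 tested soluble lysosomal proteins, 8 rose, 29 fell and 17 did not pass. The list's median was -0.22 on the log2 scale. FUCA1, the lysosomal alpha-fucosidase, fell from 129 ± 10.9 to 48.7 ± 1.72 CPM (-1.35, adjusted p = 9.79e-10, edgeR). GM2A, the activator protein of ganglioside breakdown, fell by 1.19 on the log2 scale and MANBA, the beta-mannosidase, fell by 1.06. CTSD, which encodes cathepsin D, rose by 0.37 (adjusted p = 0.00407, edgeR).

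In SUM159PT, of 53 tested cargo genes 9 rose and 13 fell (6 and 19 with total counts as the scaling), and the median was 0.01 on the log2 scale (-0.15 with total counts as the scaling). Leaving out 1 library at a time took the 13 to between 6 and 16, the lowest without siNS library 4. FUCA1 fell there too, from 28.8 ± 2.92 to 10.0 ± 1.73 CPM (-1.56, adjusted p = 5.4e-06, edgeR), and so did GALNS, the sulfatase of keratan sulfate (-0.86, adjusted p = 0.000773). CTSB, which encodes cathepsin B, rose from 696 ± 116 to 1260.1 ± 53.0 (0.81, adjusted p = 5.84e-05, edgeR), while in MDA-MB-231 it fell from 534 ± 11.9 to 414 ± 12.1 (-0.31, adjusted p = 0.0006). The difference of the responses of CTSB was 1.22 ± 0.13 (adjusted p = 3.5e-07, edgeR, interaction). Of all 16299 genes tested for that interaction, 24.3% passed. Among the cargo 22 of 54 passed with a higher and 2 with a lower response in SUM159PT, where 15.4% and 8.85% of all genes did. With total counts as the scaling 13 and 5 of the cargo passed, beside 1380 and 2792 of all 16299 genes.

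The coat that loads the receptors into vesicles at the Golgi was tested over 20 genes of AP-1, the GGA adaptors, clathrin and partners. In MDA-MB-231 7 rose and 5 fell. AP1M2, the epithelial form of the AP-1 medium chain, rose from 18.6 ± 5.69 to 34.4 ± 2.03 CPM (0.95, adjusted p = 9.16e-05, edgeR), and GGA1, an adaptor for the mannose 6-phosphate receptors, rose by 0.65 (adjusted p = 1.24e-05). AP1S3, a small AP-1 chain, fell by 0.69 on the log2 scale (adjusted p = 1.21e-05, edgeR). In SUM159PT 6 of 19 rose and 1 fell (median 0.01), or 3 and 5 with total counts as the scaling (median -0.16). CLTC, the clathrin heavy chain, rose by 0.49 there (adjusted p = 5.15e-05, edgeR). The gene that fell was GGA2, with a log2 fold change of -0.55 (adjusted p = 0.0175, edgeR), and its call ended without siNS library 4 (adjusted p = 0.0633) or siYES1 library 3 (adjusted p = 0.0551).

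Retrieval, which returns empty receptors from endosomes to the Golgi, was tested over 21 genes. In MDA-MB-231 6 rose and 6 fell. In SUM159PT 10 rose and 0 fell in edgeR, with a median of 0.21 on the log2 scale. At an unadjusted p under 0.05 1 fell, DESeq2 called 0, total counts as the scaling gave 6 risen and 2 fallen with a median of 0.04, and leaving out siNS library 1 gave 11 and 2. VAMP3, a vesicle SNARE, rose by 0.49 in MDA-MB-231 (adjusted p = 0.000861, edgeR) and 0.75 in SUM159PT (adjusted p = 2.33e-05). PLIN3, also named TIP47 and reported to bind receptor tails, rose by 0.44 (adjusted p = 0.0006, edgeR) and 0.54 (adjusted p = 3.5e-05). RAB9A, the GTPase of transport from late endosomes to the Golgi, fell by 0.42 on the log2 scale in MDA-MB-231 (adjusted p = 0.00873, edgeR) and had 0.17 in SUM159PT (adjusted p = 0.354). GOLGA4, a Golgi tether, rose from 236 ± 65.2 to 426 ± 15.6 CPM in SUM159PT (0.81, adjusted p = 0.00147, edgeR).

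Receptors related to SORT1 in sequence or use, with their partners, made a further list. Of 7 tested, 1 rose and 5 fell in MDA-MB-231, and 2 rose and 3 fell in SUM159PT (1 and 5 with total counts as the scaling). SORL1, a sortilin relative that carries endosomal cargo, fell by 1.34 on the log2 scale in MDA-MB-231 (adjusted p = 8.27e-08, edgeR) and dropped by 0.50 in SUM159PT (adjusted p = 0.00168). SORCS2, another relative, fell by 1.46 in MDA-MB-231 (adjusted p = 3.25e-09, edgeR). It also fell in SUM159PT, from a low level of 4.99 to 1.37 CPM (log2 fold change -1.91, adjusted p = 0.000219, edgeR). SORL1 fell further in MDA-MB-231 than in SUM159PT, by a difference of 0.94 ± 0.17 (adjusted p = 0.000322, edgeR, interaction). SORT1 had its larger fold change in SUM159PT, and that difference was not tested. LRP1, an endocytic receptor, fell by 1.01 in MDA-MB-231 (adjusted p = 1.85e-05, edgeR). In SUM159PT LRP1 had a log2 fold change of -0.31 (adjusted p = 0.115, edgeR), and -0.48 without siNS library 1 (adjusted p = 3.49e-06). PSAP, the saposin precursor that SORT1 can carry, rose in SUM159PT from 1689 ± 267 to 2394 ± 91.7 CPM (0.46, adjusted p = 0.00246, edgeR).

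Membrane proteins of the lysosome reach it without the tag. The list of them also held CLN6, a protein of the endoplasmic reticulum membrane. Of 23 genes of that list that were tested, 12 rose and 4 fell in MDA-MB-231 and 11 rose and 3 fell in SUM159PT (8 and 3 with total counts as the scaling), with medians of 0.26 and 0.22 on the log2 scale. With total counts as the scaling the SUM159PT median was 0.05. LAMP1, an abundant protein of the lysosomal membrane, rose from 200.4 ± 6.92 to 393 ± 8.67 CPM in MDA-MB-231 (1.03, adjusted p = 2.53e-09, edgeR) and from 155 ± 24.6 to 440.5 ± 19.0 in SUM159PT (1.46, adjusted p = 4.94e-07). ACP2, a lysosomal acid phosphatase, fell by 0.74 on the log2 scale in MDA-MB-231 (adjusted p = 7.34e-07, edgeR) and dropped by 1.20 in SUM159PT (adjusted p = 0.0036).

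TFEB, its relatives and the proteins that hold them in check formed the next list. Of 9 tested, 4 rose and 4 fell in MDA-MB-231, and 6 rose and 1 fell in SUM159PT (median 0.68), or 5 and 1 with total counts as the scaling (median 0.52). In the joint fit of all 16 libraries 1 of the 9 rose in MDA-MB-231. TFEB fell from 25.3 ± 3.81 to 11.1 ± 1.24 CPM in MDA-MB-231 (-1.13, adjusted p = 9.46e-07, edgeR) and from 28.7 ± 4.30 to 21.9 ± 1.34 in SUM159PT (-0.43, adjusted p = 0.0149). TFE3, its relative, rose in SUM159PT from 120.4 ± 20.4 to 218 ± 7.78 (0.82, adjusted p = 8.46e-05, edgeR). In MDA-MB-231 TFE3 fell by 0.20 on the log2 scale (adjusted p = 0.022, edgeR), a call that ended with no filter (adjusted p = 0.0813) and without siYES1 library 2 or 3. FLCN, which holds the family in the cytoplasm together with the Rag GTPases, rose in both lines (0.54, adjusted p = 6.8e-05, and 0.82, adjusted p = 0.00134, edgeR).

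Ligands and co-receptors of the receptors showed 0 rises and 5 falls of 10 tested in MDA-MB-231 (edgeR; 1 rise at an unadjusted p under 0.05 and 0 with DESeq2), and 2 rises and 1 fall of 11 in SUM159PT (1 and 3 with total counts as the scaling). NGFR, the p75 receptor that signals with sortilin, fell by 0.88 on the log2 scale in MDA-MB-231 (adjusted p = 2.59e-06, edgeR) and by 1.90 in SUM159PT (adjusted p = 0.000249). TGFB1, whose latent form binds IGF2R, fell from 238 ± 14.4 to 114 ± 4.95 in MDA-MB-231 (-1.01, adjusted p = 8.52e-09, edgeR) and was 361 ± 36.2 and 374 ± 30.5 in SUM159PT (0.01, adjusted p = 0.938). IGF2, the growth factor bound by IGF2R, was not counted because its symbol pairs with 2 gene IDs.

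**Figure D5:**
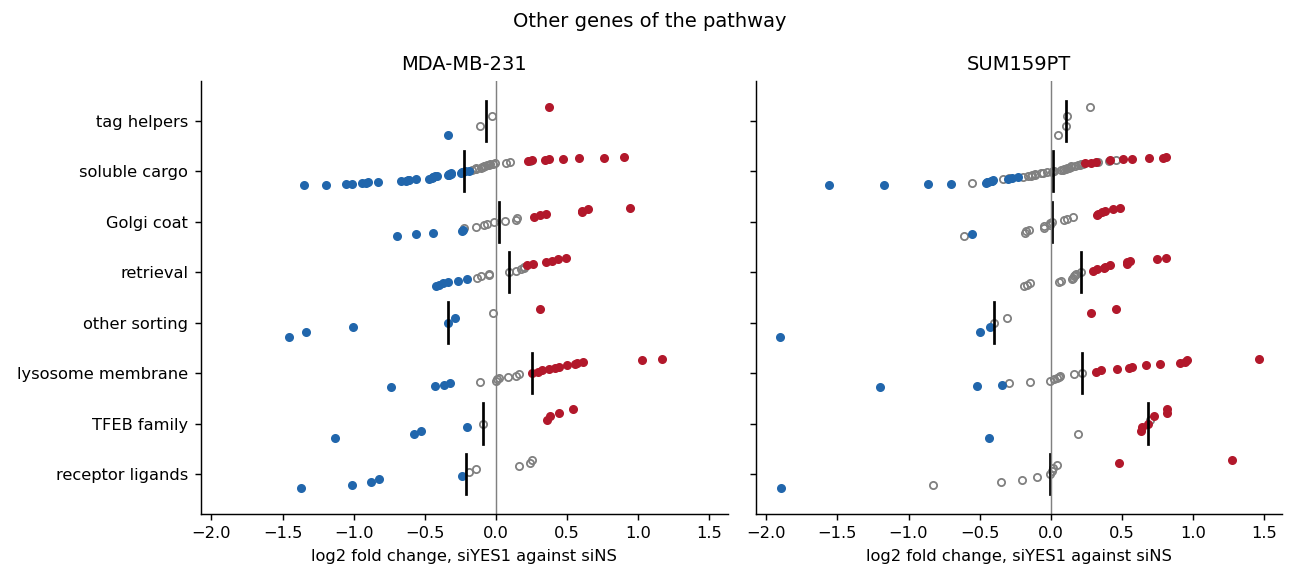
log2 fold change of the other genes of the pathway with siYES1 against siNS, by role and line. Each point is a gene, red passing as higher and blue as lower at an adjusted p under 0.05, open grey not passing, and black bars are medians. Soluble cargo leans to the left in MDA-MB-231 (29 of 54 lower), and the lysosomal membrane list leans to the right (12 and 11 of 23 higher).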

How the data were processed

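Messenger RNA was measured in 16 libraries. Poly-A RNA was reverse transcribed from random hexamers, per the labels' protocols. Whether strand was kept is not clear from them. The authors deposited raw integer counts per gene, 1 table for each line. Per the submitters' processing notes, they used HISAT2 2.0.5 on hg38 and then featureCounts 1.5.0-p3. The annotation and strand setting behind the counts are not given in the sources. GENCODE 29 held all 58735 gene IDs and gave symbols, coordinates and exon lengths, and 193 of 194 listed genes were matched.

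Members, lists and naming rules were chosen with earlier results of these data known. Genes were named for a fixed role, for likeness to a member, or as the up to 3 called genes with the largest log2 fold change in each list and line at a mean of 5 CPM. Which of them the report discusses, and the genes overlapping members, were chosen after their values were seen. Some items that the rules name are not reported here.

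Fits used edgeR 4.0.16 (R 4.3.3) with TMM scaling, filterByExpr, the quasi-likelihood F test and Benjamini-Hochberg adjustment over all genes, threshold 0.05. All 6 members passed the filter in every fit. Each line was fitted on its 8 libraries, the line differences on the 8 libraries of 1 siRNA, and the interaction on all 16. The siYES1 and line comparisons share libraries. No libraries of a group were duplicates (chi-squared per degree of freedom 2.21 to 49.6). Scripts were tested on simulated data. Alternatives were RLE and total-count scaling, no filter, leaving out each library, a joint fit, a replicate block, limma-voom 3.58.1, DESeq2 1.42.0 and a mean of 1 CPM. Promoter windows are RefSeq's.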

Additional observations from a re-analysis of the deposited data

Results flagged for a closer look

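One member had a library far from the rest of its group. NAGPA in MDA-MB-231 siNS library 2 stood at 27.755 CPM, while the other 3 libraries held 22.7 to 23.5. Of 28 groups examined in this way it was the only one so marked, and about 1 in 20 is marked by chance.

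Of 37 named genes of the pathway, 25 are given here that responded to siYES1 differently in the lines. They passed edgeR's interaction of line and siRNA at an adjusted p under 0.05. Most were named for a large called change in a line, so this number is no share of the pathway. More genes of the lists passed, such as 22 and 2 of 54 cargo genes. Of all 16299 genes tested, 24.3% passed. Values are the log2 response in SUM159PT minus that in MDA-MB-231. For tag building it was 0.55 for MBTPS1. In the coat it was -0.89 for AP1M2, 0.74 for AP1S3, -0.54 for GGA1, -0.60 for GGA2, 0.32 for CLTC and 0.60 for CLINT1. In retrieval it was 0.68 for RAB9A, 0.96 for GOLGA4 and 0.48 (0.475) for STX16. In the soluble cargo it was 1.40 for GM2A, 0.71 for MANBA and 1.22 for CTSB. Among other sorting genes it was 0.94 for SORL1, 0.79 for LRP1 and 0.58 for PSAP. In the list of lysosomal membrane genes it was -1.03 for CLN6, 0.53 for LAMP1 and 0.96 for SLC17A5. In the TFEB family it was 0.80 for TFEB, 1.31 for FNIP2 and 1.11 for TFE3. Among ligands and co-receptors it was 1.12 for TGFB1, -0.93 for NGFR and 0.82 for BDNF.

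With total counts as the scaling the interaction of AP1S3 (adjusted p = 0.102), CLTC (0.4), RAB9A (0.0734), STX16 (0.126), LRP1 (0.0578) and LAMP1 (0.0919) no longer passed in edgeR. That of CLTC also ended with no filter (adjusted p = 0.0945), that of NGFR with limma-voom (adjusted p = 0.116) and without any 1 of 12 libraries, and that of AP1M2 without any 1 of 7.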

How the results depend on the processing

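The number of genes called stayed within 1.5 times the reported one in each of the 87 fits of an alternative. Of the members' line differences 187 of 192 kept direction and side of the threshold. The exceptions were M6PR with siNS under total counts (0.3027), M6PR with siYES1 under total counts (-0.0675, reversed) and no filter (0.1257, adjusted p = 0.0824), SORT1 with siYES1 under total counts (0.0307), and M6PR with siNS without MDA-MB-231 siNS library 2 (0.296, adjusted p = 0.0595). Leaving out 1 library gave 0.296 to 0.448 there. The cause was not tested. The cargo genes that rose in MDA-MB-231 numbered 5 in the joint fit and not 8, the TFEB family genes that rose there 1 and not 4, and the cargo genes that fell in SUM159PT ranged from 6 to 16 with 1 library left out. Of 512 list counts under the alternatives, 39 moved. Total counts took the siYES1 log2 fold change in SUM159PT to 0.44 for M6PR and -1.51 for SORT1. Same-numbered libraries did not deviate together (correlation -0.0739 to 0.047, best with the same number in 2 of 24), so the numbers pair nothing; the replicate block gave 7110, 4961, 11087, 12402 and 3545 called genes in the 5 comparisons against 7503, 5321, 11377, 12647 and 3953, and of 163 results changed the call of the NGFR interaction (-0.84, adjusted p = 0.0945). Depth limits NAGPA in SUM159PT most, with 87 to 178 counts per library.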

Other observations

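Start windows of other genes of the pathway were read in the same way, after the sites of the members had been seen. Of 40 soluble cargo genes with a RefSeq window, 5 held the palindrome (CTSA, GAA, GALNS, PLBD2 and SCPEP1), and of 18 lysosomal membrane genes 4 did (ATP6V0D1, CLN3, LAMP1 and MCOLN1). None of 17 coat genes, 19 retrieval genes or 9 genes of the TFEB family did. Over all 27305 genes with a window the share was 1.18%. With the members left out, 225 genes with the palindrome were tested in MDA-MB-231, of which 26.7% rose and 23.6% fell with siYES1, beside 26.5% and 28.3% of all genes with a window. In SUM159PT 222 were tested, of which 20.7% rose and 10.8% fell, beside 19.7% and 19.2%.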
